A study of Danio rerio with 3 samples.

Results

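Syndecans and glypicans are the 2 families of core protein that carry heparan sulfate at the cell surface. A syndecan crosses the membrane and ends in a short cytoplasmic tail that binds PDZ proteins and the cytoskeleton, whereas a glypican is held by a lipid (GPI) anchor and has no cytoplasmic part. The sulfated chains of both bind growth factors, among them BMP, FGF, Wnt and Hedgehog ligands, and can present them to their receptors, hold them back or limit how far they travel. Genes were chosen by name, as rows of the count table whose symbol begins with sdc and a digit from 1 to 4 or with gpc and a digit from 1 to 6. This gave 9 of 14417 genes: the syndecans sdc2, sdc3 and sdc4, and the glypicans gpc1a, gpc1b, gpc2, gpc4, GPC1 (2 of 3) and GPC6 (3 of 3). The last 2 names mark a copy that the annotation assigned to a human gene but did not tie to a zebrafish symbol, and neither could be matched to a RefSeq gene. RefSeq lists 10 zebrafish glypican genes, and 6 of them (gpc3, gpc5a, gpc5b, gpc5c, gpc6a and gpc6b) had no row under their own name. Whether GPC1 (2 of 3) or GPC6 (3 of 3) stands for any of these is not known.

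The libraries came from wild-type zebrafish larvae at 6 days post-fertilization (dpf), raised under standard conditions without treatment. Cartilage of the cranial base in the occipital region was cut from sections by laser, avoiding the perichondrium, its RNA was amplified for 1 round, and 3 independent samples were sequenced, here libraries 1, 3 and 6. How many larvae went into each sample was not stated in the sources used here. All 3 belong to 1 condition, so there was no contrast to test and no p-value is given. Every error written with ± below is the SD between 3 libraries, which may in part be technical. Intervals and limits given for low read counts cover counting error only.

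A library held 18920027 to 25604897 counted reads, of which AC024175.4 alone took 34.7 to 59.0%. Values are therefore normalized counts, scaled with TMM factors (a trimmed mean of log ratios), on which 1 read of libraries 1, 3 and 6 is worth 0.965, 1.1 and 0.947. Triplets of values below are in this order of libraries. A gene with 0 reads could lie anywhere up to 3 reads, a limit that covers counting error only, and folds against it take the reads of the other library as counted, without their own counting error. The tissue label was set beside its markers. All 18 chondrocyte markers found in the table (led by col2a1a and col9a2) reached the minimum used below, 10 normalized counts per library. So did 67.8% of all genes, and all markers found for nerve (8), muscle (10) and blood (5). Passing it therefore does not tell cartilage from other tissues. Markers of other tissues were present too. Those of perichondrium and bone (12 found, led by col1a1b and col1a1a) summed to 199944 normalized counts in library 1, against 6623 and 12801 in libraries 3 and 6. Those of epidermis (7 found, led by krt91, listed as zgc:92533, and krt5) summed to 40218, 5348 and 5387, and those of nerve (8 found, led by tuba1c and sncb) to 6609, 11775 and 14294. Muscle (mylpfa, pvalb2), blood (hbaa1, hbba1 listed as ba1), glia (mbpa, fabp7a), vessel (fli1a, kdrl) and macrophage (coro1a, cd74a) markers were also counted.

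Reads of the 3 syndecan genes far outnumbered those of the 6 glypican genes found in the table for cranial cartilage. The normalized counts of the 3 syndecan genes summed to 3322, 3778 and 3818 for libraries 1, 3 and 6. The 6 glypican genes summed to 274, 343 and 273 in the same order, so that the lowest syndecan sum stood far above the highest glypican sum. The syndecan sum was on average 12.4 times the glypican sum, with log2 ratios of 3.60, 3.46 and 3.81 and a mean of 3.62 ± 0.17 (SD, n = 3 libraries). Syndecans held 92.5 ± 0.827% of the normalized counts of the 9 genes. The glypican sum may be incomplete, because 6 of the 10 RefSeq glypican genes had no row under their own name. The ratio and share hold for the rows found and not for the whole families. These are reads per gene and were not divided by transcript length, because no transcript lengths were at hand, so they rank reads and not molecules.

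**Figure D1:**
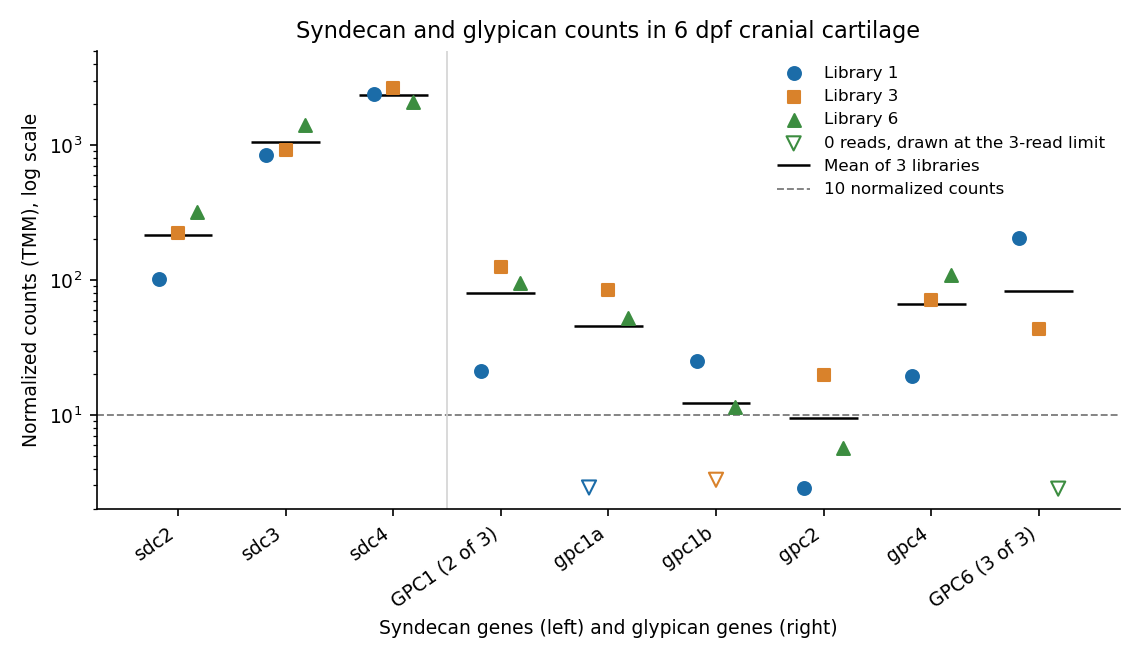
Normalized counts (log scale) of the 3 syndecan and 6 glypican genes in libraries 1, 3 and 6, with the mean of the 3 libraries as a bar. The points of sdc4 lie close together between 2090 and 2635, whereas those of GPC6 (3 of 3) run from 206 in library 1 to 0 reads in library 6, drawn open at the limit of 3 reads.

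All 3 syndecans reached 10 normalized counts per library, and 2 of the 6 glypicans did, GPC1 (2 of 3) and gpc4. Together 5 of the 9 genes passed this minimum, against 67.8% of all genes in the table. Without library 1 the number was 6, with gpc1a added. It was also 6 without library 3, with gpc1b added, and 6 without library 6, with GPC6 (3 of 3) added. The share of all genes past the minimum rose as well, to 75.5%, 74.0% and 71.4% in turn.

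Of the syndecans, sdc4 had the most reads. Syndecan-4 sits in focal adhesions, where it acts with integrins, and in frog and zebrafish embryos it takes part in non-canonical Wnt signalling and neural crest migration. Its normalized counts were 2383, 2635 and 2090 in libraries 1, 3 and 6. The libraries lay within 1.26 times of each other, and the mean of 2369 ± 273 ranked 562nd among 14417 genes. Its SD of log2 (normalized count + 1) was 0.17, and 4.94% of the 9779 genes past the minimum had a smaller one. Among the 560 genes with at least as high a mean, 10.7% had a smaller SD, and their median was 0.39. Which library was highest for sdc4 changed with the scaling, being library 3 under TMM, library 6 under total-count scaling and library 1 in the raw reads, so no order of the libraries is read from it.

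The gene sdc3 encodes syndecan-3, which is known from the nervous system and from developing cartilage of chick and mouse limbs. It had 838, 920 and 1408 normalized counts in libraries 1, 3 and 6. Library 6 stood above the others, by 1.68 times the lowest, and it remained the highest under each of the 6 other scalings. The mean was 1055 ± 308, in the 90.8th percentile of all genes. With an SD of 0.40 on the log2 scale, sdc3 varied less than the median gene past the minimum, at 0.69, and close to the 0.41 of the 1323 genes at least as abundant.

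Syndecan-2, encoded by sdc2, is a syndecan of mesenchymal cells that is needed for vessel sprouting in zebrafish. It had the fewest reads of the 3, with normalized counts of 101, 224 and 320 across libraries 1, 3 and 6. The values were well apart and library 6 was 3.16 times library 1, with the same highest and lowest library under every scaling. The mean was 215 ± 110, and the SD of 0.84 exceeded that of 61.7% of genes past the minimum and of 74.4% of the 4857 genes at least as abundant.

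The make-up of the syndecan reads differed between libraries while their sum changed little under TMM. The sum in the highest library was 1.15 times that in the lowest, and 1.18 times in raw reads. As a share of all counted reads, the 9 syndecan and glypican genes together differed by 1.57 times, and by 1.09 times with AC024175.4 left out. The gene sdc4 held 71.7%, 69.7% and 54.7% of syndecan reads in libraries 1, 3 and 6. The share of sdc3 was 25.2%, 24.3% and 36.9%, and that of sdc2 was 3.05%, 5.92% and 8.38%. The reads of the 3 genes did not overlap at all, since the lowest library of sdc4 (2090 normalized counts) exceeded the highest of sdc3 (1408), and the lowest of sdc3 (838) exceeded the highest of sdc2 (320). The lowest value of sdc2 fell within the range of the glypicans, where GPC6 (3 of 3) reached 206 and GPC1 (2 of 3) 124.5, and the ranges of neighbouring glypicans overlapped throughout.

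**Figure D2:**
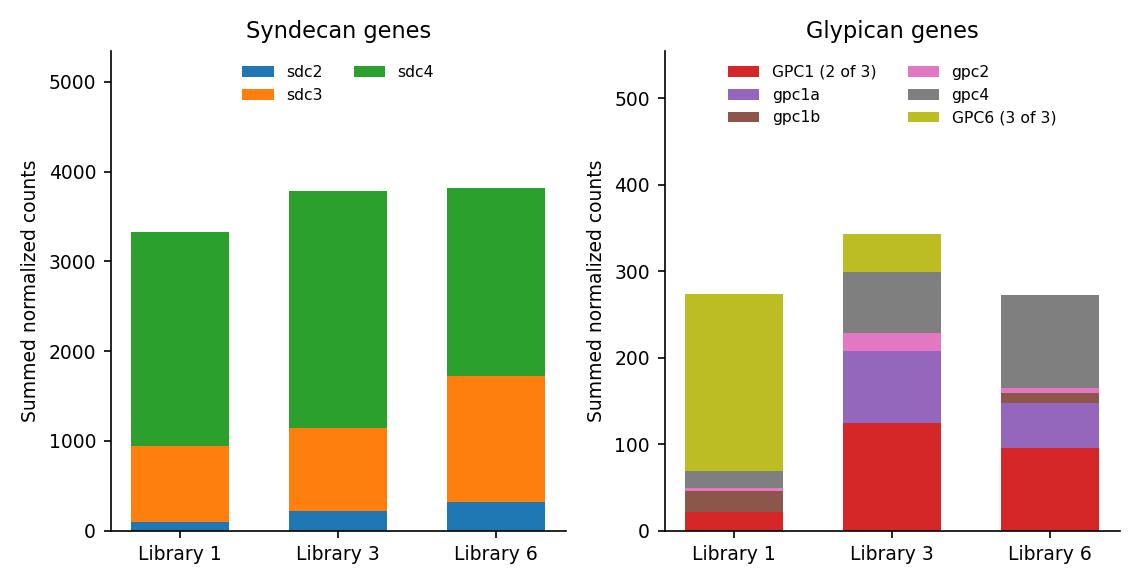
Summed normalized counts of the syndecan genes (left) and glypican genes (right) in each library, stacked by gene, on axes of different range. The glypican bars are of similar height, at 274, 343 and 273, but GPC6 (3 of 3) makes up most of the bar of library 1 and none of that of library 6.

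No glypican was as steady as sdc3 or sdc4, which had far more reads. Glypican-4, encoded by gpc4 and known in zebrafish as knypek, is needed for the cell movements that lengthen the embryo and for the stacking of craniofacial chondrocytes. Its 3 normalized counts were 19.3 (library 1), 71.6 (library 3) and 108 (library 6). Library 6 was 5.59 times library 1, and these stayed the highest and lowest libraries under all scalings. The mean was 66.3 ± 44.6, and it was 89.7 without library 1. The SD of gpc4 on the log2 scale, 1.26, exceeded that of 83.2% of the 8255 genes at least as abundant.

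Glypican-1 is prominent in the nervous system and muscle of mammals and modulates FGF signalling there. The row GPC1 (2 of 3) had 21.2, 124.5 and 95.6 normalized counts, so library 1 lay well below the others, with a ratio of highest to lowest of 5.86. Under total-count scaling library 6 was the highest in place of library 3. The mean was 80.4 ± 53.3, and the SD of 1.35 on the log2 scale exceeded that of 86.4% of the 7789 genes at least as abundant. The row gpc1a had 0 reads in library 1 and 76 and 55 reads in libraries 3 and 6, or 83.7 and 52.1 normalized counts. Against the limit of 3 reads in library 1, gpc1a was at least 28.9-fold higher in library 3 and at least 18.0-fold higher in library 6. The row gpc1b went the other way between libraries 1 and 3, with 26, 0 and 12 reads in libraries 1, 3 and 6. Against the limit in library 3, gpc1b was at least 7.59-fold higher in library 1 and at least 3.44-fold higher in library 6. Leaving out library 1 raised the mean of gpc1a from 45.3 to 67.9 normalized counts and lowered that of gpc1b from 12.2 to 5.66. Without library 3 the mean of gpc1a was 26.0. How alike these 3 rows are in sequence was not checked, and whether the counting split reads between them was not tested. The RefSeq span of gpc1a also overlaps that of ankmy1, so the values of single rows are uncertain. The 3 rows that bear the name of glypican-1 summed to 48, 189 and 168 reads, again fewest in library 1.

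Glypican-2 was first described on growing axons of the rat. The gene gpc2 had the fewest reads of the 9, with 3, 18 and 6 in libraries 1, 3 and 6, whose 95% exact Poisson intervals ran from 0.619 to 8.77, from 10.7 to 28.4 and from 2.20 to 13.1 reads. Library 3 was above the others, though its interval overlapped that of library 6. The mean was 9.47 ± 9.08 normalized counts, at the 8.23rd percentile of all genes, and it fell to 4.29 without library 3.

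Loss of glypican-6 in humans shortens the limbs. The row GPC6 (3 of 3) had 213, 39 and 0 reads in libraries 1, 3 and 6, or 206 and 43.0 normalized counts where it was found. Against the limit of 3 reads in library 6, the row was at least 72.4-fold higher in library 1 and at least 15.1-fold higher in library 3. It held 75.0% of glypican reads in library 1 and 12.5% in library 3. Its mean of 82.9 ± 108, the highest of the glypicans, rested on library 1 and was 21.5 without it. It was 124 without library 6.

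Some glypicans had no reads at all in a library. Of the 9 genes, 3 had 0 reads in at least 1 library, all of them glypicans, against 13.6% of all genes. Among genes with a mean between 10 and 100 normalized counts, 3 of the 5 glypicans had such a zero, against 19.2% of the 5627 genes in this range. Numbers this small describe these rows and were not tested. The zeros fell in a different library for each gene: library 1 for gpc1a, 3 for gpc1b and 6 for GPC6 (3 of 3).

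**Figure D3:**
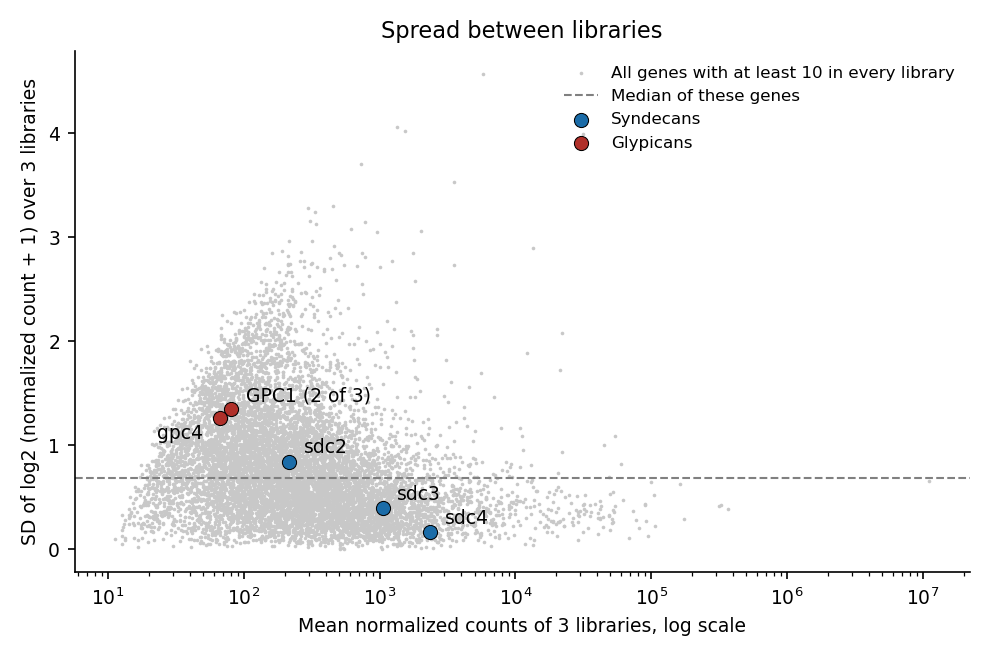
SD of log2 (normalized count + 1) over the 3 libraries against the mean normalized count (log scale) for the 9779 genes that reached 10 normalized counts per library (grey), with the 3 syndecans in blue and 2 glypicans in red. The points of sdc3 (0.40) and sdc4 (0.17) lie below the dashed median of 0.69, and those of sdc2 (0.84), gpc4 (1.26) and GPC1 (2 of 3) (1.35) above it.

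For the 5 genes past the minimum, the median SD on the log2 scale was 0.84, against 0.69 for all 9779. Without library 1 it was 0.38 over 6 genes, an SD of 2 values in place of 3. The median over all genes without library 1 was not computed, so this drop is not read as particular to these genes. In 3 of these 5 genes (sdc2, gpc4 and GPC1 (2 of 3)) the highest library exceeded 2 times the lowest, against 64.5% of all genes past the minimum, so the share was near that of the table. Although single glypican rows differed at least 5.59-fold between libraries, their sum differed by 1.26 times under TMM. This evenness rested on GPC6 (3 of 3). Without that row, a choice made after its values were seen, the glypican sums were 68.5, 299.6 and 273, and the log2 ratio of syndecans to glypicans was 5.60, 3.66 and 3.81.

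Library 1 was the lowest for 6 of the 9 genes, namely sdc2, sdc3, gpc1a, gpc2, gpc4 and GPC1 (2 of 3), against 37.4% of all genes. In the raw reads the lowest library of sdc3 was library 3. The summed nerve markers were also lowest in library 1, as were the summed chondrocyte markers, with 706960 normalized counts, against 851352 in library 3 and 1153410 in library 6. The chondrocyte sum was led by col2a1a, with 282200, 336420 and 480763, and not every marker followed it. Of the 18 chondrocyte markers, 4 were highest in library 1 (col11a2, matn4, ucmab and col9a1), with col11a2 at 26765, 19743 and 21553. The ratio of library 6 to library 1 was 1.63 for the chondrocyte sum and 2.16 for the nerve sum, beside 1.68 for sdc3, 3.16 for sdc2 and 5.59 for gpc4. The macrophage sum was lowest in library 1 too, at 248, 701 and 692, a ratio of 2.79. Of the 4 markers found, 2 passed the minimum, and these went opposite ways. For libraries 1, 3 and 6, coro1a had 18.3, 243 and 364 normalized counts and cd74a 230, 178 and 164. The others were lyz, at 0 in library 1, and csf1ra, at 0 in libraries 1 and 3. All 8 nerve markers found were above the minimum in every library and none was at 0. Of these, snap25b was lowest in library 3, at 177, against 327 in library 1 and 529 in library 6. The part of nerve or macrophage RNA in these genes was not tested, and in such samples fewer cells of a type cannot be told apart from less RNA per cell.

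GPC6 (3 of 3) and gpc1b were highest in library 1, as were the perichondrium and bone markers and the epidermis markers. In library 1 the bone sum was 30.2 times that of library 3 and 15.6 times that of library 6, and the epidermis sum was 7.52 and 7.47 times as high. Most of the epidermis sum in libraries 3 and 6 was krt91, with 11122, 5039 and 4354 normalized counts in libraries 1, 3 and 6. Each other epidermis marker fell further from library 1, with krt5 at 17257, 49.6 and 110. Most of the bone sum in library 1 came from type I collagen genes, with col1a1b at 91710.5, col1a1a at 56620.5 and col1a2 at 37406. Of the perichondrium and bone markers, 10 of 12 were highest in library 1, while the osteoblast factor sp7 was at 0 there. The marker runx2b was highest in library 6, with 606, 492 and 1439 normalized counts in libraries 1, 3 and 6. For runx2a the values were 246, 172 and 193, so the folds of the sum do not hold for every marker. All 7 epidermis markers were highest in library 1, and cldne was at 0 in libraries 3 and 6. In libraries 3 and 6 the bone sums were 6623 and 12801 and the epidermis sums 5348 and 5387, beside 39 and 0 reads of GPC6 (3 of 3). The summed blood markers and the summed muscle markers were lowest in library 3, where gpc1b had 0 reads. Not every marker followed the sums, since hbbe1.1, ckmb and pvalb1 were lowest in library 1 and pvalb2 in library 6. The 5 blood markers found summed to 35312, 5122 and 37581, and the 10 muscle markers to 9526, 4239 and 16554, all of them past the minimum. The part of these tissues in the glypican reads was not tested.

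**Figure D4:**
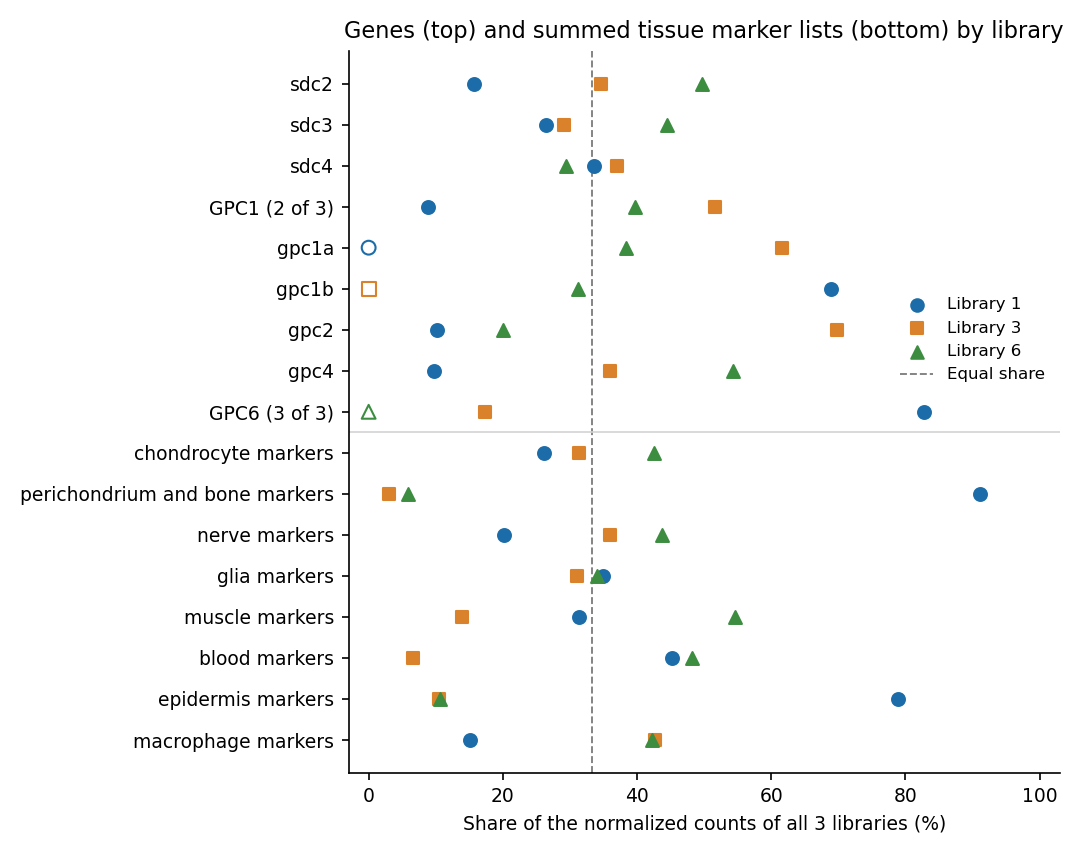
For each syndecan and glypican gene (top) and each summed list of tissue markers with at least 4 genes found (bottom), the share of the normalized counts of all 3 libraries that fell in each library, in percent, with the dashed line at an equal share. Open symbols are 0 reads. GPC6 (3 of 3) and the perichondrium and bone and epidermis markers lie far to the right in library 1, while sdc4 stays near the equal share.

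The other genes of heparan sulfate proteoglycans were looked for in 7 lists of 89 genes, of which 58 had a row. Of these, 46 passed the minimum, against 67.8% of all genes, the share beside which the counts of each list below stand. The median of their mean normalized counts was 177, against 110 over all genes, and the median SD of those past the minimum was 0.75 on the log2 scale, against 0.69.

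Heparan sulfate proteoglycans of the matrix were also counted, and 5 of 6 found passed. Perlecan (hspg2), which fills the pericellular matrix of cartilage, had 3706, 3513 and 2362 normalized counts. Collagen XV (col15a1b) had 2207, 3130 and 2087. Neither gene differed between libraries by more than 1.57 times its lowest value. Collagen XVIII (col18a1), named after its values were seen, did not pass, with 1153, 2 and 27 reads. Of 9 other cell surface proteins that can carry glycosaminoglycan chains, 7 passed, led by the neuropilins nrp1a with 1236 ± 438 normalized counts and nrp1b with 629 ± 362.

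Every syndecan and glypican chain starts from the same linker sugars. Of 7 linker genes found, 6 passed, led by the xylosyltransferase xylt1 with 1161 ± 509 normalized counts and the xylose kinase fam20b with 970 ± 148. The exception was b3gat3, the glucuronyltransferase that completes the linker, with 0, 4 and 31 reads in libraries 1, 3 and 6. Of 4 genes of the chain polymerase list, 3 passed. The polymerase subunit ext2 had 73.4, 235 and 277 normalized counts, lowest in library 1 like gpc4, whereas ext1c had 284, 74.9 and 21.8, and its mean of 127 was 48.3 without library 1. Of 8 chain-modifying enzymes, 5 passed. The 3-O-sulfotransferase hs3st3b1b had 362, 391 and 2126 normalized counts, so that its mean of 960 was 376 without library 6, and the 2-O-sulfotransferase hs2st1a had 162 ± 63.3.

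Enzymes that edit the chains or release the cores passed in 10 of 13 cases. The convertase furina, a furin of the kind that cleaves glypicans during their maturation, had 4974, 11001 and 5147 normalized counts, highest in library 3. The endosulfatase sulf1, which removes 6-O-sulfates from finished chains, had 1787, 1840 and 1877, nearly the same in each library. Of 11 proteins that bind the syndecan tail or lie downstream of it, 10 passed, led by gipc1 (synectin) with 528 ± 136 and the syntenin sdcbp2 with 466 ± 139. The other syntenin, sdcbp, was far lower in reads, at 10.6, 28.6 and 65.3 normalized counts.

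**Figure D5:**
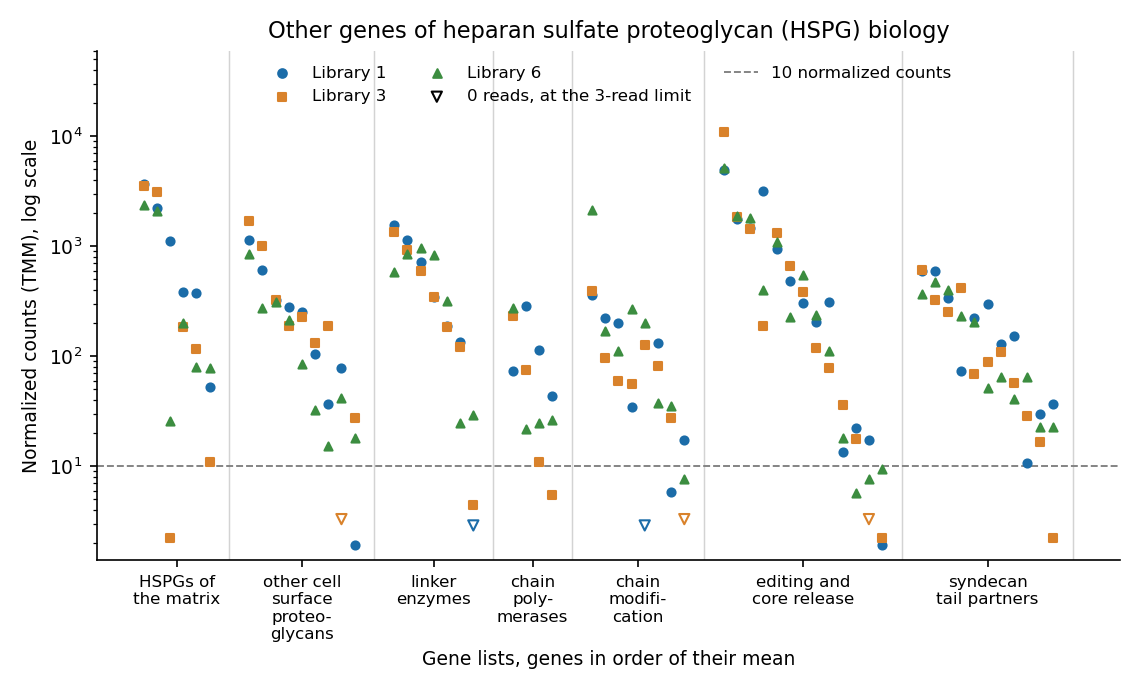
Normalized counts (log scale) in libraries 1, 3 and 6 of the 58 other genes of heparan sulfate proteoglycan (HSPG) biology, grouped by list and ordered by mean within each. The steadiest of the named genes, sulf1, lies between 1787 and 1877, and hs3st3b1b, the first gene of the chain modification list, stands apart in library 6 at 2126.

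Likeness to sdc4 was measured over the 3 libraries as the root mean square difference of centred log2 values, among 50 listed or member genes past the minimum. The nearest were cspg4, the NG2 proteoglycan, at 0.10, col15a1b at 0.15 and sulf1 at 0.15. Many genes came as close, since 270, 544 and 555 of 9778 genes lay nearer than these in turn. The profile of sdc4 was nearly flat and its order of libraries changed with the scaling. No shared order of libraries is therefore read from this closeness. The glypican with the highest mean, GPC6 (3 of 3), was nearest to ext1c at 1.84, the linker galactosyltransferase b4galt7 at 2.17 and the cortical actin protein cttn at 2.33. Of 9779 genes, 61, 208 and 369 lay nearer than these in turn. GPC6 (3 of 3) itself did not pass the minimum, and genes at 0 in a library could not be chosen, since candidates had to pass it.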

How the data were processed

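Laser-captured cranial cartilage RNA of 3 wild-type samples was amplified and sequenced by the authors. The authors deposited raw counts, as whole reads per gene name; the submitters' processing notes name Trimmomatic 0.36, edgeR and the build Zv9, while the aligner, counting tool and annotation are not given in the sources used here. All 3 columns were used.

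Counts were scaled by TMM over all genes (edgeR 4.0.16, R 4.3.3), multiplied to the mean effective library size, and log2 values used a pseudocount of 1. The minimum for a gene was 10 normalized counts per library. The TMM scaling and the edgeR dispersion were tested on simulated data, and the SD of log2 values was not. Apart from a set of changed genes, the simulated libraries shared the same expected proportions. The uneven share of AC024175.4 was therefore not modelled, and how TMM handles it was not tested. Poisson intervals used scipy 1.17.1, and tables pandas 2.3.3 in Python 3.11.15. Listed genes were matched by name, then by a RefSeq synonym (GRCz12tu, names only) where exactly 1 row had it; 3 of 58 genes and 5 of 71 markers matched by synonym. Row order per coding length was planned but not run, as no lengths were at hand, and no sequences were available to print.

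The genes and lists were chosen with earlier results of these data known. The text names every syndecan and glypican and the 3 nearest profiles. It also names the 2 most abundant genes of each list (past the minimum, for lists other than markers). Genes named after their values were seen were ankmy1, b3gat3, ckmb, cldne, col18a1, csf1ra, gdf5, hbbe1.1, hs6st2, lyz, pvalb1, sdcbp, snap25b and sp7. Further markers so named were col11a2, col1a2, col9a1, matn4, runx2a, runx2b and ucmab. Alternatives were DESeq2 1.42.0 size factors, total-count, upper-quartile and filtered TMM scaling, raw counts, other minimums and pseudocounts, other sums, and leaving out each library.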

Additional observations from a re-analysis of the deposited data

How the results depend on the processing

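No paired analysis was possible because the 3 libraries share 1 condition. Of the 9 syndecan and glypican genes, 5 passed the minimum under every scaling, 3 when 50 normalized counts per library were asked for (the syndecans alone) and 8 with a minimum of 10 in the mean. Leaving out a library gave 6 each time. The listed genes past the minimum numbered 34 to 55 of 58 under all alternatives. The log2 ratio of syndecans to glypicans, 3.62, was 4.95 over genes past the minimum, 2.06 without sdc4, 4.09 without GPC1 (2 of 3), 3.86 without gpc1a, 4.01 without gpc4 and 4.35 without GPC6 (3 of 3), and between 3.53 and 3.70 when a library was dropped. Leaving out glypican rows raises it by construction, and those rows were chosen after their values were seen. The ratio per coding length and the row order by transcript length were not run. The median SD of log2 values, 0.84, was 1.26 over all 9 genes and between 0.38 and 1.05 when a library was dropped. Under another scaling none of 54 levels moved beyond its SD. That check could hardly fail, because all scalings but raw counts were set to the same overall scale. The SD of some genes is also as large as their mean. With 1 library left out, 6 of 27 levels moved over 1.5 times, in gpc1a, gpc1b, gpc2 and GPC6 (3 of 3). Leaving out a library where a gene had no reads raises its mean about 1.5 times by construction. Part of these 6 was therefore fixed in advance. The 3 to 18 reads of gpc2 carry wide counting error.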

Other observations

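Several of these genes have a neighbour of related function in the RefSeq annotation, which was used for gene order only. The gene next to gpc4 on one side is gpc3, which had no row under its own name. On the other side is hs6st2, a heparan sulfate 6-O-sulfotransferase. The reads of hs6st2 were 36, 51 and 282 in libraries 1, 3 and 6, and those of gpc4 were 20, 65 and 114. Both thus had their lowest value in library 1 and their highest in library 6. In normalized counts library 1 was the lowest for 37.4% of all genes, whichever library was highest. The share of all genes with the full order was not counted. The genes sdc2, sdc3 and ext2 had this same order, and hs6st2 was named after its values were seen. A link between gpc4 and hs6st2 was not tested. The gene next to sdc4 on one side is gdf5, a growth factor of the BMP family known from joints. The reads of gdf5 were 6, 20 and 44 in libraries 1, 3 and 6, and those of sdc4 were 2469, 2392 and 2207. The order of libraries for sdc4 changed with the scaling, so the orders are not compared. The genes gpc1a and gpc5b also lie side by side, and gpc5b had no row under its own name.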
